A study of Mus musculus with 8 samples.

Results

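The data described here are the 2 H3K36me3 ChIP-seq libraries of wild-type (WT) mouse bone marrow stromal cells, each of which the authors called into peaks against 2 different controls. The libraries were chosen by their label, H3K36me3 in WT cells, and make up 2 of the 8 samples of the series and 4 of its 8 peak lists. Bone marrow stromal cells (BMSCs) are adherent marrow cells that include progenitors of bone and fat. They came from C57BL/6J mice homozygous for a floxed Setd2 allele, were at passage 2, and are called WT because they received a lentivirus for GFP, which leaves the floxed allele in place. They were then selected for 4 days in puromycin at 2 µg/ml and fixed for 10 min in formaldehyde at 1%. The Input control was chromatin sequenced without immunoprecipitation, and the IgG control was chromatin pulled down with a non-specific antibody. There was 1 library of each control, and both H3K36me3 libraries were called against the same ones. The labels do not say whether replicates 1 and 2 came from separate cultures. Because the 2 lists of a control share that control library, no p-value was computed: each value is given per replicate, beside the difference between replicates under 1 control. The number of reads per library is unknown, and the files hold peak positions and a peak score only.

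H3K36me3 is trimethylated histone H3 at lysine 36. It is written by Setd2, which travels with elongating RNA polymerase II, so the mark lies over the bodies of transcribed genes and builds up towards their 3′ ends. A peak caller asks where the immunoprecipitated reads exceed those of the control. Input carries the uneven recovery of sheared chromatin, while IgG also carries whatever sticks to an unspecific antibody and to the beads, and so the control decides which regions are listed.

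The genes whose peaks depended on the choice of control included some of the best known genes of mesenchymal cells. Fn1 (fibronectin), Col1a1 (the main chain of type I collagen), Thbs1 (a secreted matrix glycoprotein), Flna (an actin crosslinker), Vim (vimentin, the intermediate filament of mesenchymal cells) and Ctsd (the lysosomal protease cathepsin D) were covered with peaks in both lists against Input and had no peak in either list against IgG. The 250 bases before the start sites of Vim and Ctsd are shown to place these losses relative to the gene start, since both genes were emptied yet only 1 had peaks that reached its promoter. They are RefSeq sequences of build GRCm38.p6, written 5′ to 3′ on the strand of the gene, Vim at chr2:13574061-13574310 (+) and Ctsd at chr7:142387828-142388077 (−). Capitals mark matches on either strand to the motif TATAAA, to the motif CCAAT, which reads ATTGG on the other strand, and to the motif GGGCGG, which there reads CCGCCC. The matches do not overlap.
Vim: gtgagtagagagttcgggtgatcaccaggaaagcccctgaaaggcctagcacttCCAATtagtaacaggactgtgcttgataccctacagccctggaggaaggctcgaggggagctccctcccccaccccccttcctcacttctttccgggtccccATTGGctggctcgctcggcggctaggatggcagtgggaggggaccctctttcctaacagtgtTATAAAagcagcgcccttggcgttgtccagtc
Ctsd: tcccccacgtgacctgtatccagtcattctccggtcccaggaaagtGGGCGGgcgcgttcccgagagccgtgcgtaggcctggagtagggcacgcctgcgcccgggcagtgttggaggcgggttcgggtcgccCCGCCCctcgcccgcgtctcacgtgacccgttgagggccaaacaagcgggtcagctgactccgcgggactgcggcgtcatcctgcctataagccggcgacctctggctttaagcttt
Peaks called against Input covered 60.8% of the Vim window in replicate 1 and 4.00% in replicate 2, and peaks against IgG covered none of it. The Ctsd window was free of peaks in all 4 lists, so the change at Ctsd lay within and behind the gene. Among the 17492 of 21887 protein-coding genes with a RefSeq promoter in the table used, TATAAA occurred in 12.4%, CCAAT in 36.5% and GGGCGG in 42.7% of windows of this length.

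The list against IgG was shorter than the list against Input by nearly the same proportion in both libraries. Against Input, 242745 peaks covering 242.6 Mb were listed in replicate 1 and 246258 peaks covering 235.4 Mb in replicate 2. Against IgG, 202303 peaks covered 202.6 Mb and 205303 peaks covered 196.8 Mb. The covered length averaged 239 ± 5.11 Mb (SD, n = 2) against Input and 199.7 ± 4.10 Mb against IgG, and neither IgG list reached either Input list. The ratio of IgG to Input was 0.835 in replicate 1 and 0.836 in replicate 2, whereas the ratio of replicate 2 to replicate 1 was 0.970 against Input and 0.971 against IgG. Peaks did not become narrower: their median width was 688 and 668 bp against Input and 687 and 668 bp against IgG.

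The peaks of a library that were lost against IgG were lost whole. Of the Input peaks, 191068 (78.7%) in replicate 1 and 198221 (80.5%) in replicate 2 stood in the IgG list of the same library with identical start and end. The other 51677 (21.3%) and 48037 (19.5%) shared no base with any IgG peak, and 0 peaks overlapped in part. The same held from the other side, where 94.4% and 96.6% of the IgG peaks were identical to an Input peak and the remaining 11235 and 7082 shared no base with one. The 2 lists of a library thus hold the same intervals, kept or left out, and coverage of a gene differs between them in steps of whole peaks.

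Peaks with low scores were left out more often than peaks with high scores, although many of the latter were left out too. The score is the authors' own value per peak, of unstated scale, and was used only to rank peaks within a list. The Input list of each library was split by score into 10 equal classes. In class 1, with the lowest scores, 31.4% of peaks in replicate 1 and 25.3% in replicate 2 had no counterpart against IgG. In class 10, with the highest, 16.2% and 16.8% had none. The share of absent peaks that were also lost in the other library was highest in class 8 and fell again towards class 10. Of the absent peaks of class 1, 17.6% and 22.3% overlapped an Input peak of the other library at a place that its IgG list left empty as well. These shares were 52.5% and 52.9% in class 8 and 36.7% and 38.3% in class 10. They are taken over all absent peaks, also those without an Input peak in the other library. They thus depend on how often Input peaks recur as well as on repeated loss.

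**Figure D1:**
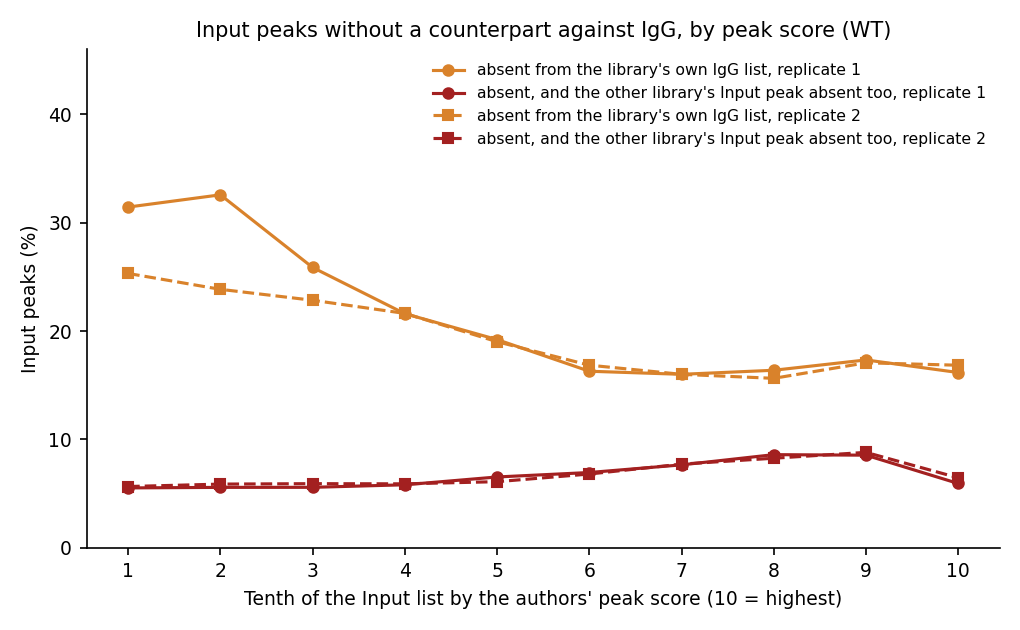
Share of Input peaks (vertical axis, %) without a counterpart against IgG, by class of the authors' peak score (horizontal axis, 10 equal classes of the Input list, 10 highest); circles and solid lines are replicate 1, squares and broken lines replicate 2. The share absent (orange) lies between 15.6% and 32.6%, and the share absent in both libraries (red) is highest in classes 8 and 9 rather than in class 1.

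The bases lost were partly the same in both libraries. Both Input lists covered 146.2 Mb in common, of which 76.1% were also in both IgG lists, 13.8% in 1 of them and 10.2% (14.9 Mb) in neither. Where a base was lost in replicate 1 and the Input list of replicate 2 covered it, it was lost in replicate 2 as well in 59.3% of cases, compared with 18.2% of all Input bases of replicate 2. In the reverse direction these shares were 60.1% and 19.2%. By shared bases the libraries differed from each other more than the controls did. A library's Input list kept 80.8% and 81.8% of its bases against IgG. The Input lists of the 2 libraries shared 60.2% and 62.1% of their bases and the IgG lists 56.2% and 57.9%. These shares are not like for like. The 2 lists of a library rest on the same immunoprecipitated reads and keep or leave out whole peaks, whereas peak edges can differ between libraries.

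The bases lost against IgG lay in genes slightly less often than those kept. Protein-coding gene spans held 86.8% and 86.1% of the bases found under both controls (replicates 1 and 2), 80.0% and 80.5% of the bases found against Input alone, and 66.7% and 67.9% of those found against IgG alone. The last class was small, at 6.65 and 4.40 Mb, compared with 46.6 and 43.0 Mb found against Input alone. The share of Input bases kept on autosomes ran from 79.0% to 82.3% in replicate 1 (chromosomes 17 and 2) and from 80.2% to 83.2% in replicate 2 (chromosomes 13 and 5). It was lower on X, at 75.9% and 78.9%, and on Y, at 54.1% and 58.2%, where the Input lists covered less than 0.1 Mb.

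Where both Input lists had peaks and neither IgG list did, the bases formed 23160 regions with a median length of 526 bp, and 25 of them were 5 kb or longer. The longest in a gene of known function was in Ctsd, at chr7:142375793-142384466 (8674 bp, GRCm38). It was followed by chr5:24704322-24712535 (8214 bp) at Wdr86 and Nub1, chr17:35154609-35161869 (7261 bp) in Prrc2a, and chr14:31171000-31178205 (7206 bp) in Nisch. Then came chr15:77761179-77768028 (6850 bp) in Myh9, which encodes a non-muscle myosin heavy chain, and chr11:107053602-107059801 (6200 bp) in Bptf, a chromatin remodelling subunit. The other 2 of the 8 longest lay at the predicted gene Gm21092, at chr8:20566760-20584183 (17424 bp), and at Pramel12, at chr4:143415247-143421294 (6048 bp), a member of a multicopy gene family. Whether reads from near-identical copies contributed at these 2 places was not tested. The opposite pattern was rarer and shorter, with 917 regions of median length 423 bp, of which 2 reached 2 kb. The 5 longest were at chrX:169979295-169981483 (2189 bp) in Mid1, chr4:146475565-146477660 (2096 bp) at Gm13241, chr4:145845696-145847554 (1859 bp) and chr8:20133280-20134965 (1686 bp) outside annotated genes, and chr5:14961325-14962931 (1607 bp) at Speer8-ps1.

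For genes, coverage is the percent of the gene's span, from its first to its last annotated base, that lies under peaks. It was computed for 21887 protein-coding genes, and the 11432 with a mean of at least 10% over the 4 lists are called tested genes, although no significance test was made. A gene counts as lower against IgG when its coverage was at least 20 percentage points lower in both libraries and both IgG values lay under both Input values. Any gene that meets this rule passes the 10% filter. By this rule 662 genes (5.79% of those tested) were lower and 1 (0.00875%) was higher. As a measure of replicate spread, the same rule applied between the libraries, under both controls, gave 234 genes higher in replicate 2 (2.05%) and 272 lower in it (2.38%). The median difference, IgG minus Input, was -4.10 points in replicate 1 and -3.96 in replicate 2, and the median absolute difference between libraries was 4.67 points against Input and 5.59 against IgG. The decrease was broad: 7785 tested genes in replicate 1 and 7629 in replicate 2 were lower against IgG by any amount, and 557 and 480 were higher. Scaling the 4 lists to one mean coverage left 357 lower genes and gave 3 higher ones. In 1 library alone, 1317 (replicate 1) and 1270 (replicate 2) genes were 20 points lower.

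**Figure D2:**
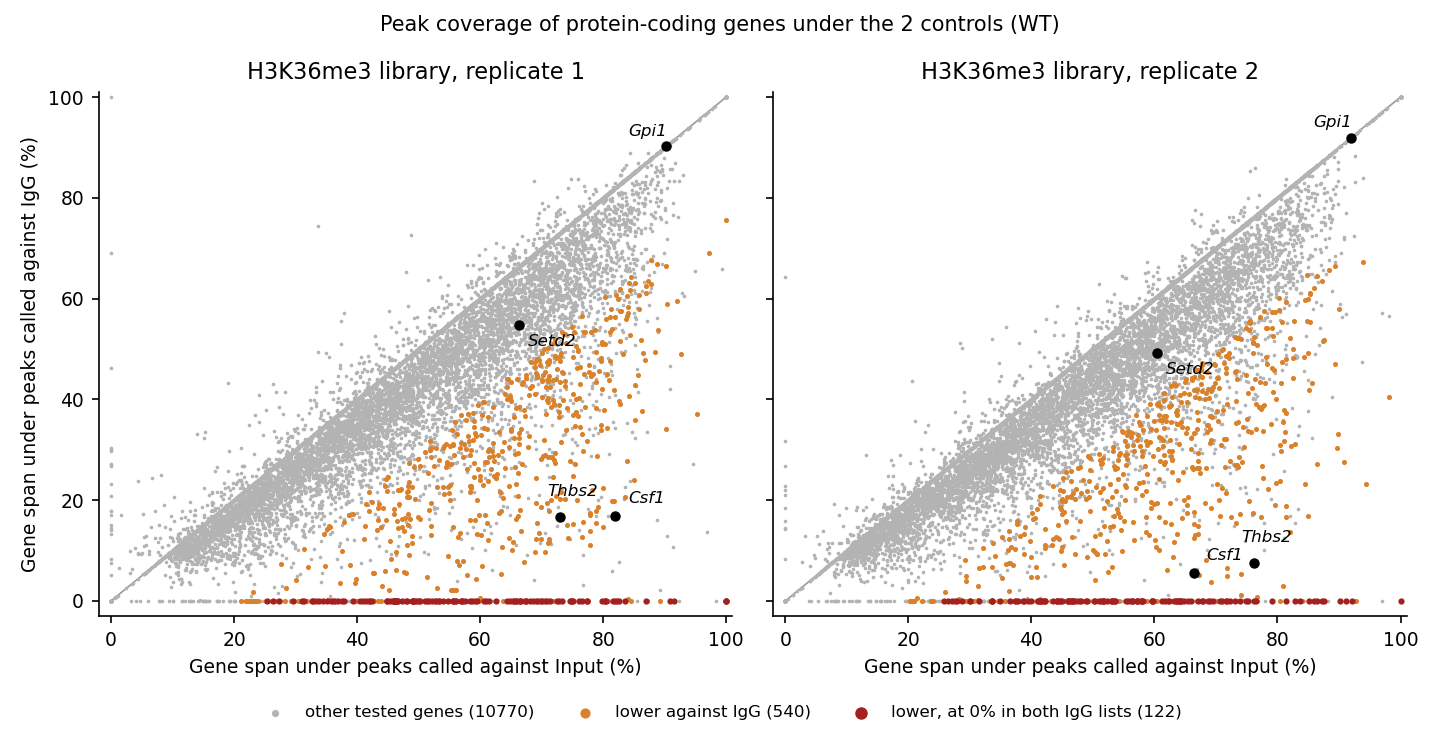
Coverage of the 11432 tested genes against Input (horizontal axis, % of gene span) and against IgG (vertical axis, %) in each library; every point is a gene and the line marks equal values. Most genes lie on or just under the line, orange genes were lower against IgG, and the 122 red genes lie at 0% against IgG in both libraries.

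Among genes of at least 10 kb, the 12 with the largest falls included 5 whose loss was complete. Fn1, at chr1:71585473-71653280, was covered to 77.4% in replicate 1 and 74.9% in replicate 2 by 32 and 38 peaks against Input, and to 0% by 0 peaks against IgG. Its Input peaks were not weak, with a median score of 108.1 and 65.4, above the median of all Input peaks (35.7 and 36.6). Ctsd was covered to 86.9% and 86.5% against Input and to 0% in both IgG lists, by 3 and 2 peaks that reached scores of 832.6 and 1595. Thbs1 went from 80.3% and 79.1% to 0%, and Col1a1 from 73.3% and 64.3% (11 and 8 peaks) to 0%. Flna went from 67.4% and 63.9% to 0%. In these 5 genes no Input peak had a counterpart, and the controls lay at least 63.9 points apart while replicates differed by at most 8.94. The genes were ranked by these same falls, and the 5 have both IgG values at 0%. The gap therefore describes them and is no separate support for the call.

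The other 7 of the 12 largest falls in genes of at least 10 kb kept some peaks. Lrpap1, a chaperone of lipoprotein receptors, had 79.9% and 81.0% against Input and 22.4% and 3.07% against IgG. Csf1, the growth factor of macrophages that stromal cells secrete, had 82.0% and 66.4% against 16.9% and 5.58%. For Thbs2, a second thrombospondin, the values were 72.9% and 76.1% against 16.7% and 7.57%. Eif4g2, a translation initiation factor, had 80.0% and 89.8% against 14.7% and 30.4%. Lzic, Bud13 and Prrc2a started between 73.2% and 84.5% and ended between 13.9% and 23.2%. In each of these 7 genes the lowest Input value exceeded the highest IgG value by at least 49.5 points, while replicates under 1 control differed by at most 19.3 points. As above, a wide gap follows from ranking the genes by their falls.

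**Figure D3:**
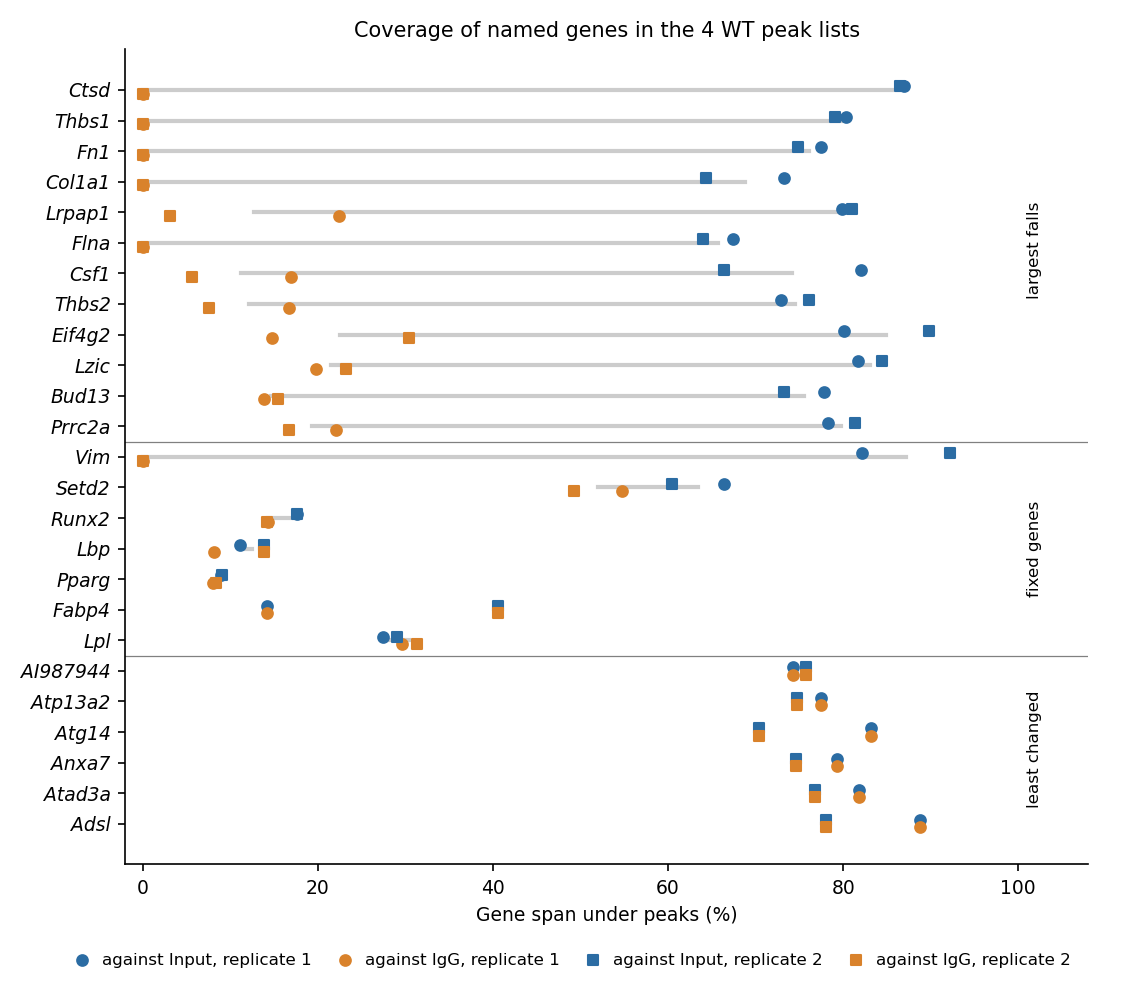
Percent of the gene span under peaks (horizontal axis) for 12 genes with the largest falls, 7 genes named for their role in the study and 6 least changed genes; blue is against Input, orange against IgG, circles replicate 1, squares replicate 2, and grey bars join the means. Fn1, Ctsd, Thbs1, Col1a1, Flna and Vim have both orange points at 0%, and the 6 lowest genes have each orange point under a blue one.

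In all, 122 genes with at least 25% coverage in both Input lists were at 0% in both IgG lists. They were short, with a median span of 3748 bp, and 17 were under 2 kb, 94 between 2 and 10 kb and 11 of at least 10 kb. The last 11 were Fn1, Flna, Col1a1, Thbs1, Acta2 (smooth muscle actin), Lox (lysyl oxidase, which crosslinks collagen), Serpinf1 (the secreted factor PEDF), Ctsd, Gm26637, E2f1 (a cell cycle transcription factor) and Tubb3 (a beta-tubulin). The Input peaks inside the 122 genes had a median score of 89.5 in replicate 1 and 75.7 in replicate 2. The peaks that tested genes not called lower kept against IgG had medians of 45.1 and 44.2. The 122 genes were chosen partly by their Input coverage, so part of this contrast can follow from that choice. In the genes called lower, medians of absent and kept peaks were 72.4 and 69.06 in replicate 1, and 64.62 and 64.98 in replicate 2. In tested genes not called lower, absent peaks scored below the kept ones, with medians of 33.8 and 37.4. Short genes hold few peaks, so that 1 peak left out moves their coverage far. Fn1, the longest of the 122, lost 32 and 38 peaks. The part of peak number in the losses was not tested.

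The neighbours of the 11 emptied genes of at least 10 kb and of Vim varied. Atic, which encodes an enzyme of purine synthesis and lies 6070 bp from Fn1, had 76.1% and 73.0% against Input and 76.1% and 54.3% against IgG. On 1 side of Acta2, Fas had 65.1% and 57.6% against Input and 65.1% and 52.4% against IgG, and on the other, 3 bp away, Stambpl1 had 39.1% and 32.2% against 29.8% and 22.2%. Srfbp1, beside Lox, had 58.3% and 60.9% against 40.9% and 42.2%. Def8, 20941 bp from Tubb3, had 71.3% and 67.9% against 71.3% and 71.2%. None of these neighbours, on either side, met the rule, although many had little coverage to lose. Coverage also differed outside genes: in the 5 kb beside Fn1 on the side of Atic, peaks covered 63.4% and 38.6% against Input and 13.2% and 10.46% against IgG. Shorter emptied genes did include adjacent pairs, such as Tpi1 with Spsb2 and Cdk4 with Tspan31, all 4 at 0% against IgG. The gene spans of both pairs overlap, so a single peak can count for both genes of a pair. Over all genes, 124 of the 662 lower genes (18.7%) had an adjacent protein-coding gene that was also lower, beside 7.95% of all tested genes. Overlapping genes were not left out of this count.

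At the other end were long, broadly covered genes with no change between controls. Adsl, an enzyme of purine synthesis, was covered to 88.8% in replicate 1 and 78.1% in replicate 2 under either control, by 10 and 8 peaks that were all kept. Atad3a, Atg14 (an autophagy subunit), Anxa7 (an annexin), Atp13a2 (a lysosomal cation transporter) and AI987944 likewise had the same coverage under both controls in each library, between 70.4% and 83.2%. In these 6 genes only the replicate changed a value. Equality was common: 3090 tested genes in replicate 1 and 3323 in replicate 2 had exactly the same coverage under both controls.

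Of the genes named for their role in the study or in stromal cells, Setd2 itself changed moderately. It was covered to 66.4% and 60.5% against Input by 52 and 45 peaks and to 54.7% and 49.2% against IgG by 46 and 40 peaks, so that the controls did not overlap but the difference stayed under 20 points. Runx2, the master regulator of osteoblasts, had 17.6% in both Input lists and 14.3% and 14.2% against IgG. Pparg, the master regulator of fat cells, had 8.96% and 9.10% against 8.05% and 8.36%. Lpl, lipoprotein lipase, was slightly higher against IgG, with 29.6% and 31.3% compared with 27.4% and 29.1%. Lbp, which binds bacterial lipopolysaccharide, had 11.1% and 13.9% against Input and 8.19% and 13.9% against IgG, and its groups overlapped. Fabp4, a fatty acid carrier, had 14.2% and 40.6% under either control. Alpl and Sp7, both of bone formation, did not exceed 3.01% in any list, and Bglap and Cebpa were at 0% in all 4.

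The higher direction held a single gene. Bex3, an X-linked gene of 1726 bp, had no Input peak in either library and 29.8% and 31.8% coverage against IgG.

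The 27 gene lists were read beside the 5.79% of all tested genes that were lower, and the cytoskeleton list had the largest share among those with at least 5 tested genes. Of 40 tested genes of the mesenchymal cytoskeleton 22 (55.0%) were lower, with a median difference of -27.5 points beside -4.77 over all tested genes. Vim was covered to 82.2% and 92.2% against Input by 6 and 5 peaks and to 0% against IgG. Actb and Actg1, the cytoplasmic actins, had 46.2% and 46.8%, and 42.2% and 82.8%, against Input and 0% against IgG. The tubulin genes Tuba1a, Tuba1b, Tuba1c and Tubb5 were also at 0% in both IgG lists, from Input values between 44.2% and 69.0%. In all, 16 of the 22 had no peak in either IgG list. Not every gene of this list was lower: Anxa5 had 74.9% and 58.3% against Input and 73.3% and 54.4% against IgG, and Tagln2 45.8% and 43.1% against 37.2% and 43.1%.

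Of 43 tested genes of collagens and matrix, 15 (34.9%) were lower, with a median difference of -13.01 points. Besides Fn1, Col1a1, Thbs1 and Thbs2 they included Col1a2, the partner chain of Col1a1, with 53.0% and 49.0% against Input and 2.59% and 8.63% against IgG. Sparc, a collagen-binding protein of bone, had 69.97% and 66.5% against 28.1% and 15.2%, and Serpinh1, the collagen chaperone, 53.3% and 51.7% against 0%. The proteases Mmp2, Mmp14 and Bmp1 were lower as well, Bmp1 with 68.0% and 64.7% against 32.8% and 25.5%. In contrast, Col3a1 had 35.4% and 23.4% against 31.4% and 23.4%, and Col11a1 13.1% and 11.9% against 12.6% and 11.4%.

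Of 24 tested lysosomal genes 9 (37.5%) were lower, with a median difference of -17.8 points. They were the cathepsin genes Ctsa, Ctsb, Ctsd, Ctsl and Ctsz together with Lamp1, Psap, Gusb and Ppt1. Ctsl had 69.8% and 80.4% against Input and 12.3% and 0% against IgG, and Psap, the precursor of the saposins, 72.2% and 62.0% against 27.3% and 6.19%. Ctsk, the collagen-degrading cathepsin, kept 69.3% and 68.5% under either control, and so did Neu1, a sialidase, at 61.0% and 68.5%. Within glycolysis 6 of 19 tested genes (31.6%) were lower, namely Pfkl, Aldoa, Tpi1, Gapdh, Pgam1 and Pkm. Gapdh went from 48.0% and 41.8% to 0% and Aldoa from 49.1% and 53.3% to 0%, whereas Gpi1 kept 90.2% and 91.9% and Ldha 62.0% and 62.4% under either control.

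Among genes of protein synthesis the split ran within families. Of 80 tested genes for cytosolic ribosomal proteins 17 (21.2%) were lower, and 8 of these were at 0% in both IgG lists, such as Rpl34 (65.4% and 68.7% against Input) and Rps3a1 (76.5% and 64.3%). Rpl13 kept 61.5% and 68.3% and Rack1 80.1% and 71.2% under either control. Of 64 tested translation factor genes 8 (12.5%) were lower, among them Eef2 (83.6% and 90.1% to 0%) and Eef1a1 (71.4% and 75.2% to 0%), both of the elongation step, while Eef1b2 kept 46.9% and 56.8%. Of 21 chaperone genes 4 were lower, including Hsp90ab1 (74.6% and 72.2% to 0%) and Hspa8 (84.0% and 68.5% to 0.357% and 8.20%), while Dnaja1 kept 66.3% and 70.5%. In the endoplasmic reticulum 4 of 30 folding genes were lower, among them the chaperones Hspa5, with 80.5% and 77.6% against 0% and 33.7%, and Calr, with 77.8% and 76.7% against 17.5% and 0.846%. Replicates disagreed at some of these genes, Hspa5 being one where a single IgG list kept peaks.

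Histone genes gave 7 lower genes of 20 tested (35.0%), out of 103 that the name pattern found. One of the 7, H13, encodes a peptidase and not a histone. The others were at 0% in both IgG lists, such as H3c4, which went from 100% in both Input lists to 0%. Most histone genes lack introns, and near-identical copies may share reads, so their values are uncertain.

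Other housekeeping machinery held few or no lower genes. Of 38 tested proteasome genes, 45 splicing factor genes and 29 DNA repair genes, 0 were lower, beside 5.79% of all tested genes. At that share each of these lists would hold only a few lower genes, so 0 in 1 list says little. Proteasome and splicing genes had median Input coverages of 67.8% and 67.3%, beside 48.7% over all tested genes. Psma1 kept 79.95% and 70.1% and Hnrnpa2b1, an RNA-binding protein, 66.2% and 64.8% under either control. Single libraries did lose peaks here: Psmd7 fell to 0% in replicate 1 (from 77.0%) and to 50.3% in replicate 2 (from 59.3%). The splicing genes Ddx39b (82.6% and 82.8% against 7.71% and 65.8%) and Srsf5 (79.2% and 60.3% against 33.4% and 41.3%) missed the rule in replicate 2. Of 88 respiratory chain genes 6 were lower (6.82%), of 74 mitochondrial ribosomal protein genes 7 (9.46%) and of 367 zinc finger genes 19 (5.18%), shares near that of all tested genes. Ndufv1, of complex I, went from 75.1% and 70.7% to 0%, whereas Zfp105, a zinc finger gene, kept 69.2% and 67.8%. When the 4 lists were scaled to one mean coverage, the median difference over all tested genes moved from -4.77 to 2.02 points. On that scale the median was -24.9 points for the cytoskeleton, -18.4 for histone genes, -7.89 for lysosome, -6.07 for matrix and -5.64 for glycolysis, and turned positive for cytosolic ribosomal proteins (3.50) and translation factors (2.50).

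**Figure D4:**
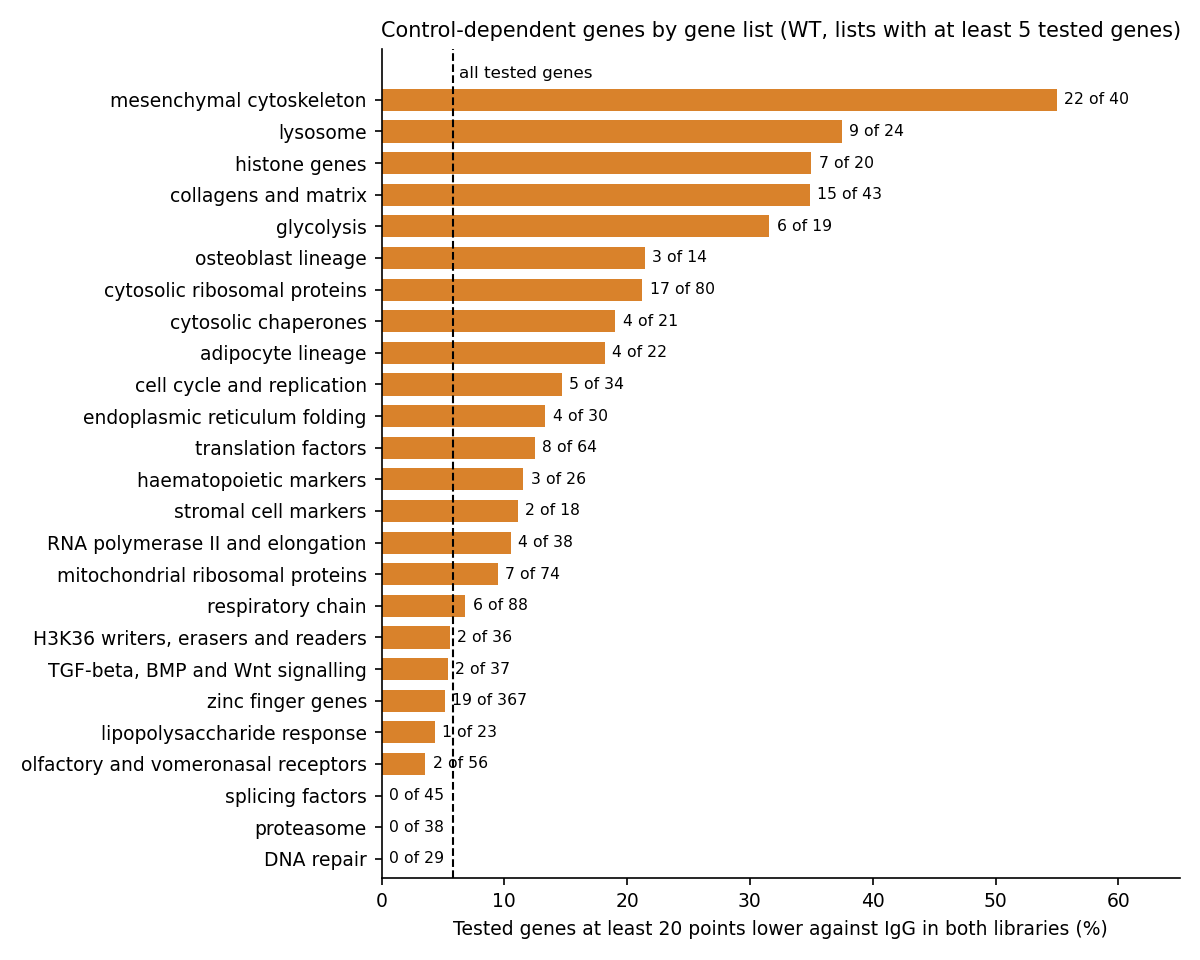
Share of tested genes in each list that were at least 20 points lower against IgG in both libraries (horizontal axis, %), with the counts beside each bar; the broken line marks 5.79% of all tested genes. The cytoskeleton list reaches 55.0%, and proteasome, splicing factors and DNA repair are at 0.

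The osteoblast and adipocyte lists held larger shares of lower genes than the signalling lists, on small counts and partly through matrix genes. In the osteoblast list 3 of 14 tested genes (21.4%) were lower, namely Atf4 and the matrix genes Col1a1 and Sparc, which are in the matrix list too. In the adipocyte list 4 of 22 (18.2%) were lower, namely Plin3, Fasn, Scd2 and Klf4. Scd2, a fatty acid desaturase, had 51.4% and 50.3% against Input and 4.74% and 4.22% against IgG. Among 37 tested TGF-beta, BMP and Wnt pathway genes, Bmp1 and Tgfb1 were lower (5.41%), and Tgfb1 had 64.4% and 71.3% against 39.99% and 47.3%. Of 23 tested genes of the lipopolysaccharide response only the adaptor gene Tirap was lower (4.35%), with 66.9% and 50.0% against 27.2% and 10.1%. In the list of 36 tested writers, erasers and readers of H3K36 methylation, 2 genes with a JmjC domain were lower (5.56%). They were Kdm8 (48.4% and 45.0% against 23.6% and 19.9%) and Riox2 (69.2% and 64.4% against 48.1% and 34.6%). Whether Riox2 acts on H3K36 was not tested. The TGF-beta, lipopolysaccharide and H3K36 lists thus had shares near the 5.79% of all tested genes. Dnmt3a, a DNA methyltransferase that reads the mark, had 52.0% and 53.2% against 32.0% and 27.6% and missed the rule in replicate 1. With the lists scaled to one mean coverage, Fasn, Tgfb1, Kdm8 and Riox2 no longer met the rule, and the adipocyte list kept 2 lower genes.

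The labelled cell type was checked against marker lists. Of 28 stromal genes 18 reached a mean of 10%, for example Pdgfrb with 54.2% and 54.9% against Input and 49.8% and 44.8% against IgG, and Pdgfra with 49.6% and 53.7% against 33.5% and 37.9%. Thy1, often used to define such cells, Twist1 and S100a4 were the 3 at 0% in all 4 lists, and Lepr did not exceed 3.33%. Over the 28 stromal genes mean coverage was 28.0% and 25.9% against Input and 17.3% and 17.6% against IgG. Cxcl12, a niche chemokine, was lower, with 57.8% and 51.2% against 5.22% and 0%, and Csf1 was the other lower gene of this list. Haematopoietic genes also carried peaks, and 26 of 40 reached a mean of 10%, a share like that of the stromal list. Mean coverage over the 40 genes was 21.3% and 23.4% against Input and 14.8% and 17.6% against IgG. Of these 40 genes 10 were at 0% in all 4 lists, among them the lymphoid Cd3e and Cd79a and the erythroid Hbb-bs. The myeloid genes Csf1r (45.1% and 43.5% against Input), Adgre1 (18.6% and 17.3%) and Cd68 (37.0% and 71.3%) were covered, and Lyz2, the macrophage lysozyme, went from 74.9% and 87.6% to 0%. Lyz2, Fcer1g and Laptm5 were the 3 lower genes of the haematopoietic list (11.5% of those tested), beside 11.1% in the stromal list. Endothelial genes (mean over 20 genes at most 5.08% in any list) and neuronal genes (mean over 28 genes at most 3.36%) held few peaks. Fli1, Egfl7, Tubb3 and Nefh were the only ones of these that reached a mean of 10%, and Cdh5, a defining endothelial gene, did not exceed 2.49%. In bulk chromatin fewer cells of a type and less of the mark per cell cannot be told apart, and the part of myeloid cells in the losses was not tested.

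The share of lower genes varied with gene length and Input coverage. Of tested genes under 2 kb 6.86% were lower, of those of 2 to 10 kb 11.5%, of those of 10 to 50 kb 5.70%, of those of 50 to 200 kb 0.533%, and of the 310 longer genes 0. The median span was 10351 bp for lower genes and 21775 bp for all tested genes. By Input coverage the share rose from 0.196% at 10 to 25% to 10.1% at 75% or more, which the 20-point rule partly fixes. Within genes of at least 10 kb, 342 of 8520 (4.01%) were lower, and the lists kept their order in part: 7 of 21 cytoskeletal, 13 of 40 matrix, 7 of 18 lysosomal and 2 of 15 glycolytic genes were lower, but 0 of 29 splicing and 0 of 21 proteasome genes.

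Along the gene, peaks were densest in the 3′ part under Input, and outside the lower genes also under IgG. In the 408 lower genes of at least 5 kb with a known strand, peaks against Input rose from 3.15% and 3.37% of bases in the 500 bp before the start to 84.8% and 84.7% in the sixteenth of 20 equal parts of the gene. Against IgG that part held 24.95% and 25.8%, a loss of 70.6% and 69.5% of the covered bases, compared with 34.6% and 35.2% in the third part and 19.8% and 21.5% in the last 500 bp of the 5 kb behind the gene. In the first part, where Input peaks covered only 3.82% and 3.63%, the lower genes lost 50.4% and 41.1%. The 7755 other genes lost 13.04% and 12.7% in the sixteenth part and 12.6% and 12.5% in the third, and 16.9% and 17.2% in the last part of the gene. Against IgG, coverage of these other genes rose from 4.55% and 4.37% in the first part to 58.3% and 56.2% in the eighteenth. The lower genes were chosen by their loss over the whole gene, and most of their Input coverage lay in the 3′ part, so neither the size nor the place of their loss is a finding: the profile only describes them.

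**Figure D5:**
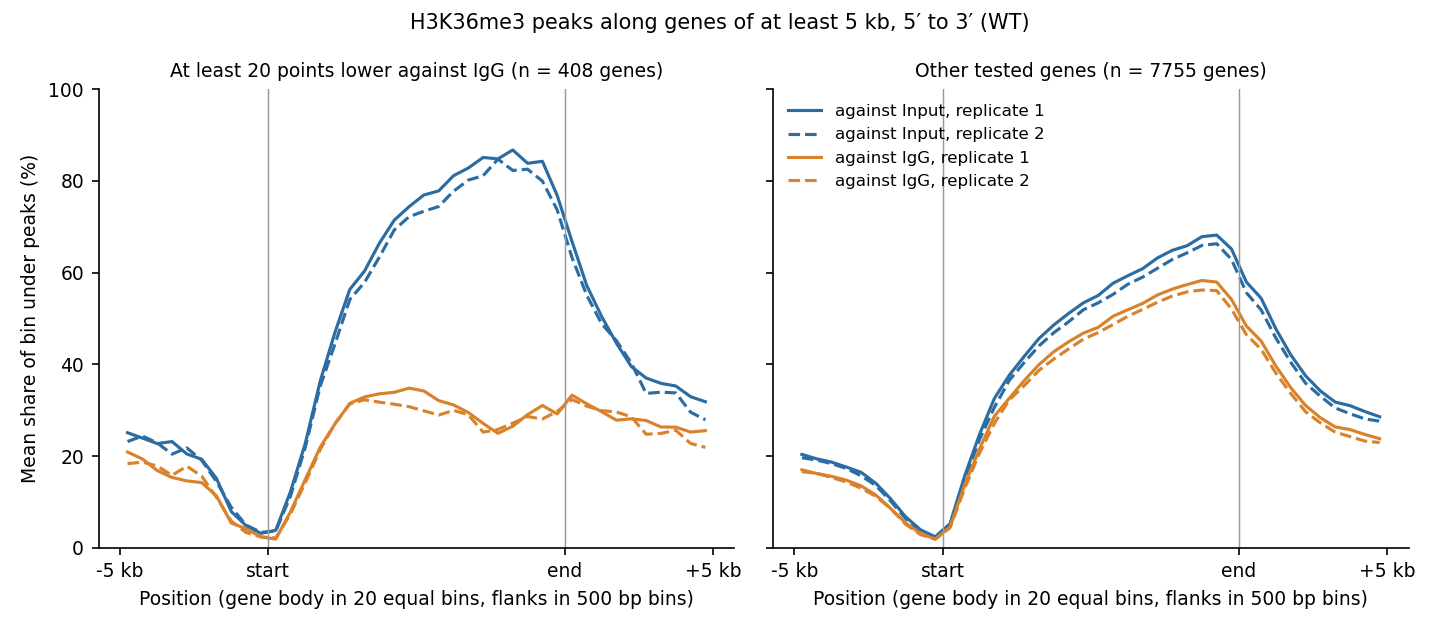
Mean share of bases under peaks (vertical axis, %) along genes of at least 5 kb, from 5 kb before the start to 5 kb behind the end (horizontal axis), for 408 genes lower against IgG (left) and 7755 other tested genes (right); blue is against Input, orange against IgG, solid lines replicate 1 and broken lines replicate 2. In the left panel the Input curves climb to above 80% while the IgG curves stay between 20% and 35% within the gene after its first parts.

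Start sites carried few peaks under any control. The 250 bases before the start were touched by a peak in 3.79% and 3.47% of tested genes against Input and 2.98% and 2.95% against IgG. Of the 102 emptied genes with a RefSeq promoter, 9.80% and 8.82% were touched against Input and 0.980% in both IgG lists, Vim being among those that lost it. Peaks were kept or left out whole, so a promoter peak that ran into an emptied gene had to be absent against IgG. The fall in these genes is thus partly fixed by how they were chosen and is not a finding about promoters. The TATAAA motif occurred in 12 of these 102 windows (11.8%), beside 6.27% of lower and 6.52% of tested genes; CCAAT occurred in 39.2% beside 40.4% and 37.1%, and GGGCGG in 52.9% beside 57.0% and 58.6%.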

How the data were processed

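The measurements were 4 deposited peak lists, 2 per WT H3K36me3 library, called by the authors on single libraries against either WT control, per the labels. Bowtie2 alignment and the build GRCm38 are named in the submitters' processing notes. Peak names in the files begin with MACS; its version and options were not given in the sources used here. Per peak the authors deposited a score, at least 13.01 and of unstated scale. The lists give no read counts, so depth and the precision it gives are unknown, and absence of a peak sets no limit on signal.

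All peaks of the 19 autosomes, X and Y entered as listed, and positions are printed counted from 1. Gene spans, start sites and promoters came from RefSeq tables of GRCm38.p6, and strand was taken from the promoter table. Coverage, overlaps and profiles were computed in Python 3.11.15 with numpy 2.4.6 and pandas 2.3.3, tested on simulated data, and drawn with matplotlib 3.10.9. Samples were grouped by their titles. Differences were taken within each library, since its 2 lists rest on the same immunoprecipitated reads.

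The members, 27 gene lists and rules were chosen with earlier results of these data known. Of the lists, 19 were written out and 8 taken by name patterns. Named were 12 genes fixed for their role, the 12 largest falls and any rises in genes of at least 10 kb called by the rule (leaving out Gm and Rik names), the 6 least changed genes of at least 20 kb with at least 70% coverage in each list, and per gene list up to 3 largest falls and 2 smallest differences. Other genes were named after their values were seen. Alternatives covered score, merging, thresholds, filters, scaling, gene length, overlap and single replicates. KO libraries were not used.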

Additional observations from a re-analysis of the deposited data

How the results depend on the processing

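Depth is unknown, 1 library stood for each control, and the labels give no separate cultures, so a peculiarity of either control is shared by both replicates. The ratio of covered length was 0.839 with peaks at or above their list's median score and 0.824 with peaks within 1 kb merged. The share of Input bases kept was 77.7% and 79.9% under these settings, and 79.6% when regions with at least 1 bp or at least 50% of their length in the other list were counted. The protein-coding share rose by 0.642 percentage points against IgG, and by 0.566 and 0.549 under the score and merging settings.

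The 662 lower genes became 1746 at 10 points and 292 at 30 points, 342 in genes of at least 10 kb, and 1270 to 1317 without 1 replicate. Scaling each list to the same mean coverage moved the median difference over tested genes from -4.77 to 2.02 points and left 357 lower genes, all among the 662. It ended the call of Cct2, Fasn, Fcer1g, Kdm8, Laptm5, Mrps22, Riox2 and Tgfb1. It left 20 lower genes in the cytoskeleton list, 14 in matrix, 14 in cytosolic ribosomal proteins, 9 in lysosome, 5 in glycolysis and 5 in histones. The difference is paired by library in the main values. With no replicate block, on the means of both libraries, 1219 genes were lower and 7 higher. The single higher gene became 3 by score, 2 with merging, 9 to 14 without 1 replicate, 3 at 10 points, 3 with scaling, and 0 at 30 points, at a mean coverage of at least 25% and in genes of at least 10 kb. With the score setting Bex3 was not among the 3. Other settings gave 518 to 942 lower genes. Of the 609 by score 497 were among the 662, and of the 942 with merging 655. The causes of these shifts were not tested.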
